A study of Mus musculus with 8 samples.

Results

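The unfolded protein response and the secretory machinery of the endoplasmic reticulum (ER) were followed in single cells of mouse small intestinal crypts through 42 genes, chosen by symbol from the 27998 genes of the deposited matrices. They comprise 6 stress sensors and transcription factors, 12 chaperones and cochaperones, 6 disulfide isomerases, 5 genes of ER-associated degradation (ERAD), 10 genes of translocation and signal peptide removal, and 3 genes of cargo sorting, retrieval and calcium binding. All 42 symbols were found once in each matrix. Exons of Ddit3, Hsp90b1, Manf and Pdia4 overlap those of another annotated gene on the same strand, so that their counts are less certain.

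Proteins bound for the surface or for secretory granules enter the ER through the Sec61 channel, lose their signal peptide, and are folded by chaperones such as BiP (Hspa5) and by protein disulfide isomerases. When unfolded proteins build up, the sensors IRE1 (Ern1 and its epithelial paralog Ern2), ATF6 and PERK act on the transcription factors Xbp1 and Atf4, which raise the genes of folding, export and degradation, and prolonged stress raises Ddit3 (CHOP). In the gut, Paneth cells secrete antimicrobial peptides, goblet cells secrete mucins held together by disulfide bonds, and enteroendocrine cells secrete peptide hormones, so each leans heavily on this machinery.

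The cells were EpCAM+ (an epithelial surface protein) and came from crypts of adult mice. The WT label stands for controls that, per the methods, carried at the H11 locus a reporter with the ieCtnnb1 enhancer, a Shh promoter, LacZ and iCre, and KO stands for mice homozygous for a deletion of that enhancer (Ctnnb1 delta i.enh). Per the methods both groups were females, with the cells of a genotype pooled, and the legends disagree on the number of animals. The labels name 4 samples in each group but each group came as 1 matrix in which no barcode was tied to a sample, so that each group was 1 sample, no test was possible, and every interval below covers counting error only.

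The WT matrix held 15987 barcodes and 134876816 UMIs (unique molecular identifiers, each counting 1 captured transcript), and the KO matrix held 12763 and 123794575. The filters left 13095 WT and 8658 KO barcodes, and 57 barcodes occurred in both matrices. Ctnnb1 itself was lower in KO by 0.18 to 0.43 on the log2 scale in the 5 main classes, relative to the median of all genes. These Ctnnb1 ratios were not set against genes of like transcript length, as those of the members are below. Epcam was found at 236 to 2076 CPM (UMIs of a gene per 1000000 UMIs of the class) in those classes.

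Classes were gated by the share of a barcode's UMIs that came from marker genes, none of which is a member. The gates held 3308 WT and 936 KO Paneth cells, 1613 and 751 goblet cells, 163 and 97 enteroendocrine cells, 1182 and 1148 absorptive cells, and 2505 and 1779 progenitors (cells with stem or cycling markers and no other class's). Paneth markers made up a median of 45.1% of UMIs in WT and 43.9% in KO Paneth cells, against 1.62% to 6.08% in the other 4 classes. Goblet markers made up 10.1% and 6.32% in goblet cells, against 1.40% and 0.98% in Paneth cells. Within a factor of 1.5 of the Paneth cut lay 3956 WT and 1786 KO barcodes, of which 2182 and 715 were inside, so the Paneth class is the upper range of a score. Plasma cells, which also express many of these genes, left little trace: their markers Jchain, Mzb1 and Tnfrsf17 gave 10 UMIs in all WT Paneth cells and 8 in all WT goblet cells, and at most 30 in any of the 5 main classes, in KO absorptive cells. Of the gated cells, 70.2% to 100% lay in a cluster named alike.

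Within each class the KO cells were deeper. The median was 46239 UMIs in KO and 22656 in WT Paneth cells, 17619 and 6520 in goblet cells, 13421 and 3069 in enteroendocrine cells, 9079 and 5536 in absorptive cells, and 15904 and 8612 in progenitors. Genotype, library and depth cannot be told apart in any KO to WT value.

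Promoters are shown first because many members share 1 short element. The ER stress response element (ERSE) is a classical binding sequence of ATF6 and XBP1 next to NF-Y, and reads CCAAT and CCACG with 9 bases of any kind between them. RefSeq promoters (build GRCm38.p6, from 250 bases before to 50 bases after a start) were at hand for 34 of the 42 members, and an ERSE on either strand stood in 9 of the 34 (26.5%) but in 0.119% of all 32851 promoters. The 9 were Hspa5, Hsp90b1, Calr, Canx, Dnajc3, Creld2, Pdia6, Derl3 and Syvn1, and Hsp90b1 had 2. The shorter ERSE-II, ATTGG and CCACG with 1 base between them, stood in Herpud1 and Dnajb11 and in 0.0365% of all promoters, and the letters TGACGTGG, at the heart of an XBP1 element, stood in 1 of 3 promoters listed for Txndc5 and in 0.676% of all. The 5 letters CCACG alone, part of both longer elements, were in 27 of the 34 members and in 32.8% of all promoters. A member was counted once if any promoter listed for it held the element, while the share of all is per promoter, so these are unlike units. The 42 genes were chosen as genes of ER folding and stress, so the difference was not tested. These are matches of letters and no evidence of binding. The stretches below run 5' to 3' on the gene's strand, with the fixed letters of each element in capitals, and stand for a chaperone, a lectin chaperone, a disulfide isomerase, a secreted cochaperone, and 2 ERAD genes.
Hspa5 (chr2:34772013-34772055, plus strand): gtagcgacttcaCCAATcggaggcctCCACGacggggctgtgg
Calr (chr8:84847063-84847105, minus strand): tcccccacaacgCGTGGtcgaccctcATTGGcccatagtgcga
Pdia6 (chr12:17266479-17266521, plus strand): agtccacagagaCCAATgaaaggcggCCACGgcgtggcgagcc
Creld2 (chr15:88819508-88819550, plus strand): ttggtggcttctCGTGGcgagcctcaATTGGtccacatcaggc
Derl3 (chr10:75893230-75893272, plus strand): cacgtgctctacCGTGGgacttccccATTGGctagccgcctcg
Herpud1 (chr8:94386365-94386399, plus strand): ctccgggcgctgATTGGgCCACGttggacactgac

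In Hspa5, Pdia6 and Herpud1 the element ran forward, and its first base lay 65, 98 and 52 bases upstream of the start. In Calr, Creld2 and Derl3 it ran in reverse, from 162, 126 and 156 bases upstream. The stretch of Hsp90b1 shows a forward and a reverse copy side by side: its first element began 212 bases and its second 107 bases upstream.
Hsp90b1 (chr10:86705521-86705668, minus strand): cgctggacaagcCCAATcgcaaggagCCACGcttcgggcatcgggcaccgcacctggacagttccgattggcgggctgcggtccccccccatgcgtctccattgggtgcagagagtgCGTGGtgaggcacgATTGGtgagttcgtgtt

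Goblet cells gave the largest share of their transcripts to the 42 genes. Together the members took 1.39% of all UMIs in WT and 1.21% in KO goblet cells. The share was 0.732% and 0.682% in absorptive cells, 0.692% and 0.744% in enteroendocrine cells, 0.688% and 0.708% in progenitors, and 0.633% and 0.700% in tuft cells. It was smallest in Paneth cells, at 0.404% and 0.345%. In single WT goblet cells the share had a median of 1.36%, with the tenth and ninetieth percentiles at 0.773% and 2.04%, while in WT Paneth cells these were 0.395%, 0.284% and 0.569%. Goblet and Paneth cells thus did not overlap between those percentiles in either matrix. In Paneth cells the markers took a median of 45.1% and 43.9% of UMIs, and most other genes had a smaller share there too. Against absorptive cells the median log2 ratio was -1.73 over all genes and -0.91 over the members. In UMIs per cell the order was another one. A WT Paneth cell held a mean of 90.2 UMIs of the members and a WT goblet cell 102.5, against 41.0 in absorptive cells, 62.4 in progenitors and 33.4 in enteroendocrine cells. In KO, where cells were deeper, the means were 154, 213.8, 64.1, 118 and 104 in that order of classes.

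**Figure D1:**
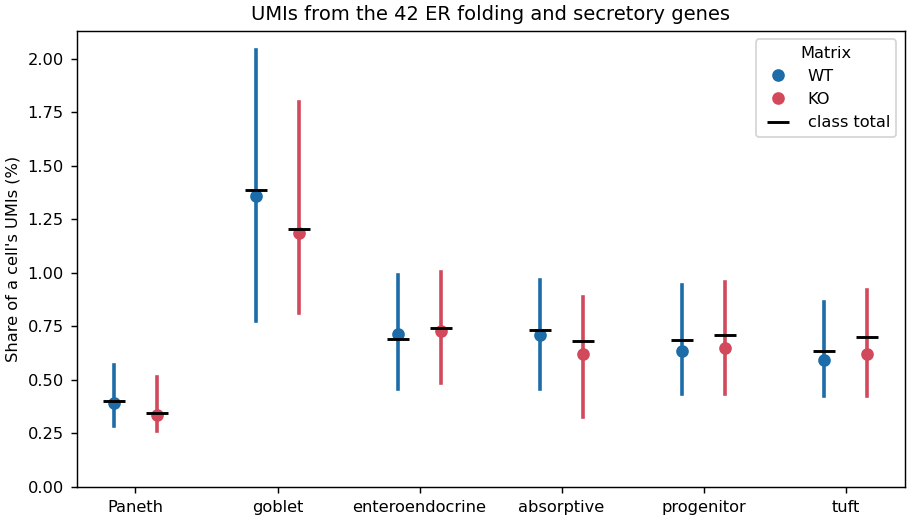
Share of a cell's UMIs (percent, vertical axis) from the 42 members in 6 gated classes (horizontal axis), with points for the median cell, lines from the tenth to the ninetieth percentile of cells, and black dashes for the share over all UMIs of the class. Goblet cells stand above all other classes in both matrices (WT blue, KO red) and Paneth cells below them.

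The class ratios are log2 ratios of CPM against absorptive cells of the same matrix, and a member was called higher or lower when it passed 2-fold in both matrices. In Paneth cells, where the markers alone took the 45.1% and 43.9% given above, most other genes had a smaller share than in absorptive cells. Over 9765 genes tested the median was -1.73, and 71.3% were called lower and 3.26% higher. Of the 42 members 5 were called higher and 15 lower, with a median of -0.91. Measured from the median of all genes, 17 members and 14.8% of all genes were at least 2-fold higher in both matrices, and 0 members were lower. In goblet cells 15 of 41 tested members were higher and 0 lower, against 17.9% and 9.03% of 9678 genes, and the members' median was 0.85 against 0.31 over all genes. In enteroendocrine cells 4 of 39 were higher and 0 lower, against 16.7% and 8.77% of 7616 genes, with a median of 0.14 against 0.34. In progenitors 4 of 41 were higher and 1 lower, against 28% and 9.7% of 10455 genes. Measured from the median of all genes, 7 members were higher in goblet cells, 2 in enteroendocrine cells and 0 in progenitors, beside 12.4%, 10.1% and 16.6% of all genes.

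**Figure D2:**
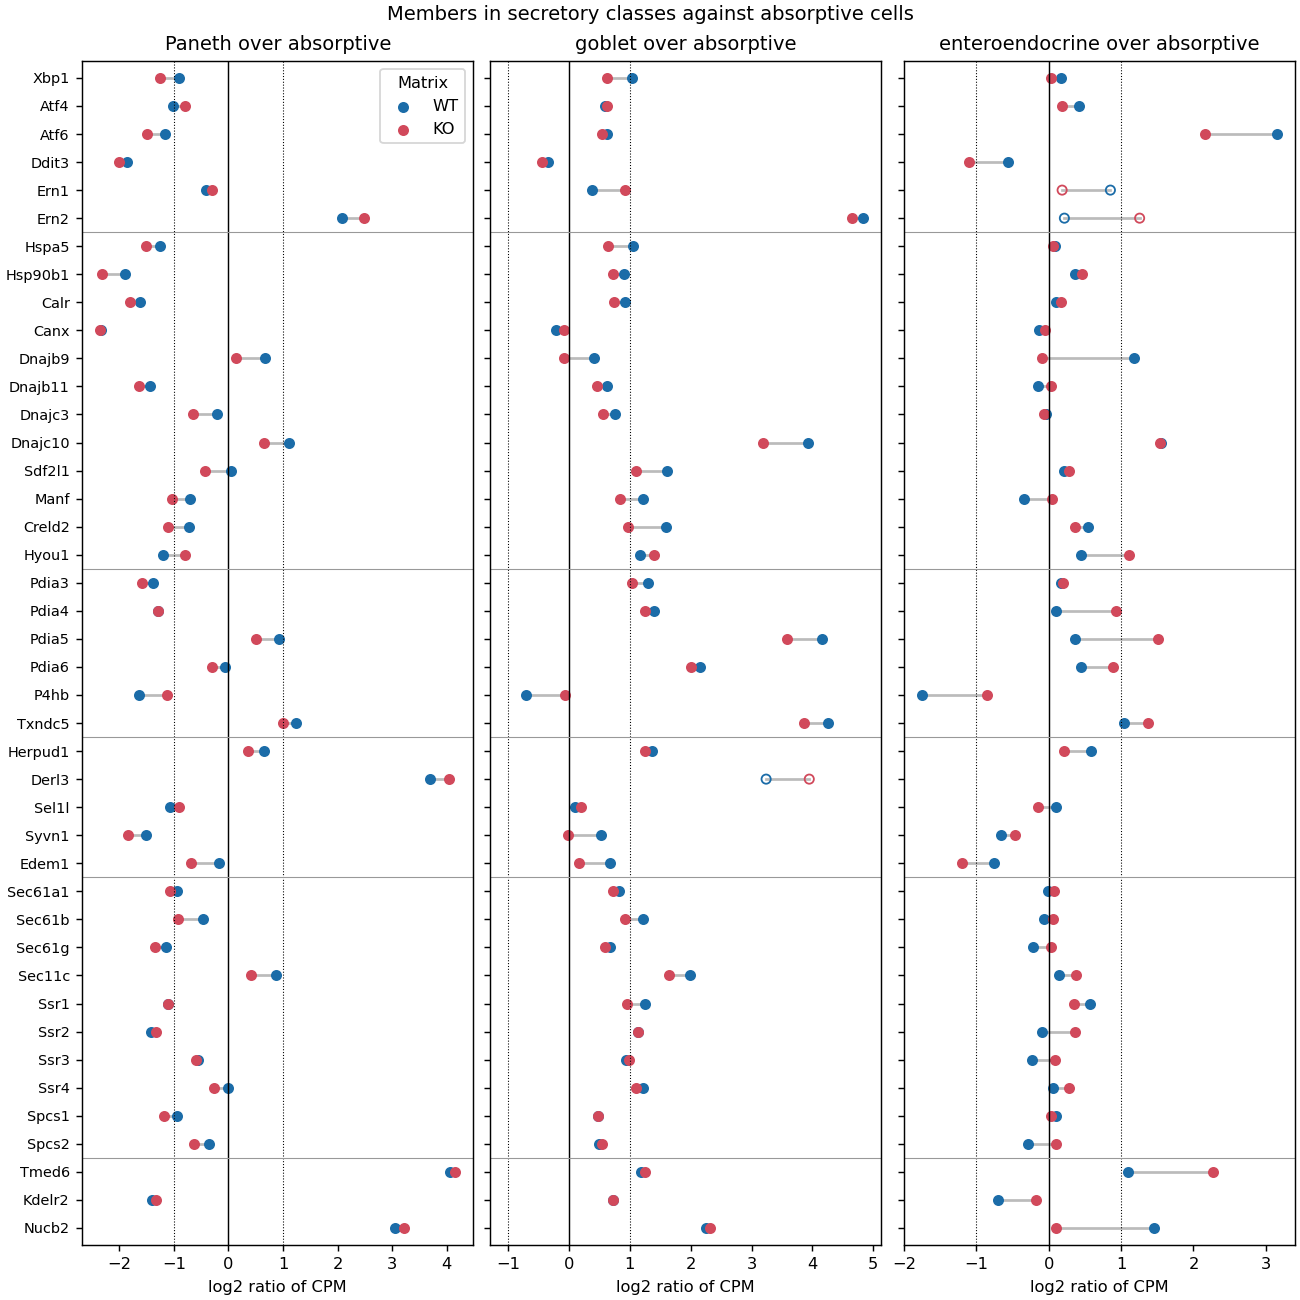
Log2 ratio of CPM in Paneth, goblet and enteroendocrine cells over absorptive cells (horizontal axis) for the members (vertical axis, horizontal lines divide the roles), with WT in blue, KO in red, open circles for members under 50 UMIs, and dotted lines at 2-fold. Tmed6, Derl3 and Nucb2 stand apart in Paneth cells, Ern2, Txndc5, Pdia5 and Dnajc10 in goblet cells, and Atf6 in enteroendocrine cells. Derl3 is left out for enteroendocrine cells, where it had 0 UMIs.

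Among the sensors, the paralogs of IRE1 parted. Ern2, the IRE1 of mucosal epithelia (chr7:122169893-122186207 in GENCODE M21 on build GRCm38, as for all gene positions below), reached 125 CPM in goblet cells of WT and 46.6 in those of KO. It was at 18.5 and 10.3 in Paneth cells, 10.8 and 6.91 in progenitors, 5.09 and 4.42 in enteroendocrine cells, and 4.38 and 1.85 in absorptive cells. The goblet to absorptive ratio was 28.5-fold in WT and 25.2-fold in KO, with log2 intervals of 4.31 to 5.42 and 4.01 to 5.37. Paneth cells were 4.22-fold and 5.59-fold above absorptive cells, a call that was lost when the classes came from clusters. Ern1, the ubiquitous paralog, ranged only from 7.93 to 19.1 CPM over the 5 WT classes and from 3.16 to 7.37 in KO, and was not called in the 3 classes where it could be tested, Paneth, goblet and progenitor cells.

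Atf6 (chr1:170704674-170867771), the sensor that is cut in the Golgi to free a transcription factor, was highest in enteroendocrine cells. It was at 173 CPM there in WT and at 39.8 in KO, against 30.02 and 12.9 in goblet cells, 19.5 and 8.89 in absorptive cells, 20.2 and 7.89 in progenitors, and 8.74 and 3.16 in Paneth cells. This is 8.89-fold over absorptive cells in WT (log2 interval 2.79 to 3.51) and 4.48-fold in KO (1.65 to 2.66), and the call was kept in all 11 alternatives. The level was uneven among the enteroendocrine cells. In the 118 WT cells without progenitor markers it was 265 CPM, and in the 45 with them 86.4, while the KO values were 79.5 in 29 and 27.2 in 68 cells. Cells without progenitor markers were the larger part in WT and the smaller part in KO. The gate also held different clusters, made in each matrix by itself. Of the 163 WT cells, 109 lay in a cluster led by Chgb, Chga, Tac1, Afp and Tph1, with Atf6 at 279 CPM from 126 UMIs, and 50 in a cluster led by Gip, Cck, Gcg, Pyy and Ghrl, with Atf6 at 31.8 CPM from 10 UMIs. All 97 KO cells lay in 1 cluster led by Gip, Cck, Chgb, Gcg and Ghrl.

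Xbp1, the target of IRE1 splicing, reached 260 CPM in goblet cells of WT and 158 in those of KO, 126 and 102 in absorptive cells, 143 and 105 in enteroendocrine cells, 95.4 and 97.5 in progenitors, and 67.6 and 43.0 in Paneth cells. Counts of 3' tags do not tell its spliced form from the unspliced one. Atf4, the factor downstream of PERK, was at 199 and 142 CPM in goblet cells and at 65.6 and 52.5 in Paneth cells. Ddit3, which marks prolonged stress, had its highest level in absorptive cells, at 22.5 and 25.3 CPM, and its lowest in Paneth cells, at 6.21 and 6.25. Its ratio in progenitors was the 1 member called lower there, from 9.87 and 9.74 CPM. Goblet cells, with the most Ern2 and Xbp1, had less Ddit3 than absorptive cells in both matrices, by 0.35 and 0.44 on the log2 scale, which is under 2-fold.

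The disulfide isomerases gave the highest share of calls in goblet cells, 5 of 6, beside 17.9% of all genes. Measured from the median of all genes it was 3 of 6, beside 12.4%. Txndc5 (chr13:38500079-38528824) was at 507 and 241 CPM in goblet cells against 26.6 and 16.6 in absorptive cells, 19.1-fold and 14.6-fold. Pdia5 (chr16:35397312-35490873) was at 124 and 77.7 against 6.95 and 6.48, 17.9-fold and 11.98-fold. Pdia6 was at 589 and 483 against 132 and 120, Pdia4 at 96.6 and 74.1 against 36.7 and 31.0, and Pdia3 at 863 and 647 against 351 and 317. The call of Pdia3 was lost under looser cuts, with classes from clusters, with a mitochondrial limit of 15% and after centring. That of Pdia4 was lost after centring. P4hb went the other way. This isomerase, which is also a subunit of the microsomal triglyceride transfer protein that loads lipoproteins, was at 1177 CPM in WT absorptive cells and 532 in KO, against 719 and 510 in goblet cells, 377 and 243 in Paneth cells, 355 and 279 in progenitors, and 349 and 296 in enteroendocrine cells. It was the highest of the 5 classes in absorptive cells in both matrices, though in KO by only 0.06 on the log2 scale over goblet cells.

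Of the chaperones and cochaperones 3 of 12 were called higher in goblet cells, beside 17.9% of all genes. Measured from the median of all genes it was 1 of 12, beside 12.4%. Dnajc10 (chr2:80315466-80354043), the ER reductase ERdj5, reached 286 CPM in goblet cells of WT and 96.6 in those of KO, 15.3-fold and 9.07-fold over the 18.7 and 10.6 of absorptive cells. In enteroendocrine cells it was at 54.7 and 31.0, 2.92-fold and 2.91-fold higher, and that call was lost with classes from clusters. Sdf2l1 was at 104 and 117 CPM in goblet cells against 34.0 and 54.5, and Hyou1 at 50.2 and 23.5 against 22.3 and 8.89. The calls of Sdf2l1 and Hyou1 were lost after centring. Hspa5 was at 1075 and 743 CPM in goblet cells against 516 and 476, 2.08-fold and 1.56-fold, and so was not called. In Paneth cells Hspa5 was at 217 and 166 CPM. The lectin chaperone Canx was the lowest member in Paneth cells relative to absorptive ones, at 75.7 and 49.6 against 382 and 253 CPM, followed by Hsp90b1 at 131 and 102 against 487 and 510. On the log2 scale these were -2.33 and -2.35 for Canx and -1.89 and -2.32 for Hsp90b1, where the median of all genes was -1.73. Besides these, Paneth cells had Atf6, Ddit3, Hspa5, Calr, Dnajb11, Pdia3, Pdia4, P4hb, Syvn1, Sec61g, Ssr1, Ssr2 and Kdelr2 called lower, and none of the 15 was 2-fold below the median of all genes.

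In enteroendocrine cells the members called higher were Atf6, Tmed6 (1.10 and 2.27), Dnajc10 (1.55 and 1.54) and Txndc5 (1.04 and 1.37), and Pdia5 (0.36 and 1.51) passed 2-fold in KO alone. With classes from clusters the calls of Tmed6, Dnajc10 and Txndc5 were lost, and those of Tmed6 and Txndc5 also after centring on the median of all genes. Free Paneth RNA would give Tmed6 14.7 of its 19.1 CPM in WT enteroendocrine cells and 5.63 of its 35.4 in KO ones. The lowest ratios belonged to P4hb, at -1.75 and -0.84, and to Edem1, at -0.76 and -1.19, while Ddit3 came next at -0.56 and -1.10.

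The highest ratios in Paneth cells belonged to Tmed6, Derl3 and Nucb2. Tmed6 (chr8:107061476-107065644), a p24 family member of the early secretory pathway, reached 149 CPM in Paneth cells of WT and 131 in those of KO. It was at 20.3 and 17.3 in goblet cells, 19.1 and 35.4 in enteroendocrine cells, 14.7 and 15.4 in progenitors and 8.91 and 7.32 in absorptive cells. Paneth cells were thus 16.7-fold and 17.9-fold above absorptive cells, with log2 intervals of 3.70 to 4.46 and 3.84 to 4.50. Free Paneth RNA, estimated below, would by itself give 11.9 CPM in WT absorptive cells and 6.43 in KO ones, so these folds rest on levels near background. Nucb2 (chr7:116504369-116540584), a calcium-binding protein and the precursor of nesfatin, was at 89.4 and 44.6 CPM in Paneth cells, 51.1 and 23.9 in goblet cells, and 10.7 and 4.82 in absorptive cells, or 8.34-fold and 9.26-fold higher in Paneth than in absorptive cells. Derl3 (chr10:75893413-75895941), a derlin of ERAD whose promoter stretch is shown above, was low throughout, at 1.96 and 1.53 CPM in Paneth cells, 1.43 and 1.43 in goblet cells, and 0.661 and 0.472 in progenitors. In absorptive cells it had 1 UMI in each matrix, so that its Paneth ratios of 12.99-fold and 16.6-fold carried log2 intervals of 1.20 to 9.01 and 1.52 to 9.37, and in enteroendocrine cells it had 0 UMIs, which allows up to 3.82 CPM in WT and 2.21 in KO. Txndc5 was the fifth member called in Paneth cells, at 2.35-fold and 2.01-fold, and fell under 2-fold with stricter cuts, with classes from clusters or with a mitochondrial limit of 15%. The other ERAD members were not called higher in Paneth cells, where the median ratio of all genes was -1.73. Herpud1 was at 0.66 and 0.35. Sel1l, Syvn1 and Edem1, which recognise and ubiquitinate substrates, had Paneth to absorptive ratios of -1.07 and -0.90, -1.52 and -1.84, and -0.17 and -0.68.

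**Figure D3:**
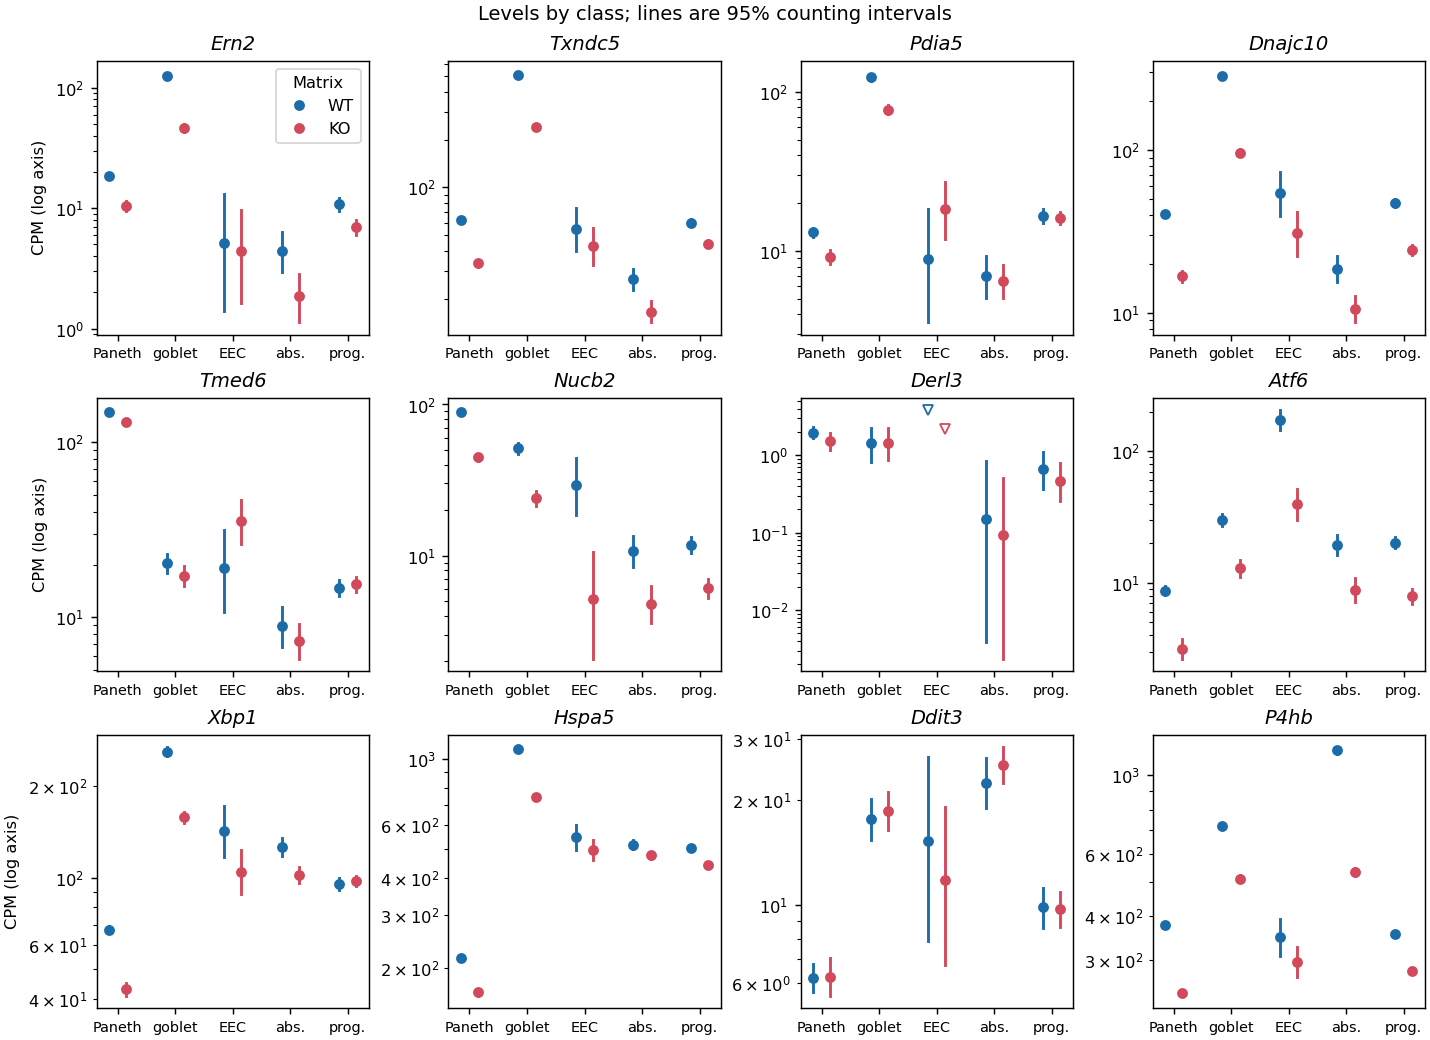
CPM (vertical, log axis) of 12 members in the 5 main classes (EEC, enteroendocrine; abs., absorptive; prog., progenitor), with WT in blue, KO in red, lines for 95% Poisson intervals, and open triangles for the limit that 0 UMIs allow. Ern2, Txndc5, Pdia5 and Dnajc10 peak in goblet cells, Tmed6 and Nucb2 in Paneth cells, Atf6 in enteroendocrine cells, and Ddit3 and P4hb in absorptive cells.

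Translocation and signal peptide genes had a median log2 ratio of 1.02 over the 10 members in goblet cells, beside 0.31 over all genes. Of the 10, 3 were called higher, beside 17.9% of all genes. Measured from the median of all genes it was 1, beside 12.4%. Sec11c, a catalytic subunit of signal peptidase, was at 431 and 455 CPM against 109 and 146 in absorptive cells. Ssr4 and Ssr2, subunits of the translocon-associated complex, were at 874 and 955 against 375 and 446, and at 419 and 545 against 191 and 250. The call of Ssr4 was lost with classes from clusters, and those of Ssr4 and Ssr2 after centring. The other 7 were between 0.47 and 1.25 in each matrix. In Paneth cells the same 10 genes had a median of -0.85, and 0 were called higher and 3 lower (Sec61g, Ssr1 and Ssr2). All genes had a median of -1.73 there, with 3.26% higher and 71.3% lower. Measured from that median 4 of the 10 were higher, beside 14.8% of all genes, and 0 lower. In enteroendocrine cells the median of the 10 was 0.05 beside 0.34 over all genes. There 0 were called, where 16.7% of all genes were higher. The remaining calls in goblet cells were Herpud1 (1.37 and 1.24), an ERAD scaffold raised by ER stress, Nucb2 (2.25 and 2.31) and Tmed6 (1.19 and 1.24). All 3 calls were lost with classes from clusters, those of Herpud1 and Tmed6 also after centring, and that of Tmed6 also with stricter cuts and with each cell weighted equally. Free Paneth RNA would give Tmed6 11.3 of its 20.3 CPM in WT goblet cells and 5.86 of its 17.3 in KO ones. Kdelr2, the receptor that returns escaped ER proteins, was at 338 and 298 CPM in goblet cells, 205 and 181 in absorptive cells, and 77.6 and 71.8 in Paneth cells. Members with an ERSE or ERSE-II did not lead in goblet cells: the 10 tested had a median of 0.82 and 2 calls, and the 23 whose promoters lacked both had a median of 0.96 and 9 calls.

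Genes of the same pathways outside the 42 were counted in the same way, and are to be read beside the 17.9% of all genes called higher in goblet cells and the 71.3% called lower in Paneth cells. In goblet cells 8 of 19 tested folding enzymes were called higher, led by Agr2 (5.80 and 5.12), the isomerase needed for mucin folding, and Fkbp9 (4.32 and 5.95), with Ero1lb (-0.65 and -0.08) and Erp44 (0.29 and 0.13) lowest. Of 17 sensors and stress genes 7 were higher, led by the ER-bound factors Creb3l4 (4.21 and 4.28) and Creb3l1 (4.17 and 3.84), and the liver and enterocyte factor Creb3l3 was lower (-5.05 and -4.93), followed by Tmbim6 (-0.78 and -0.94). Of 21 genes of ER to Golgi transport 3 were higher, led by Kdelr3 (4.44 and 3.84) and Tmed9 (2.74 and 2.31), and 2 were lower, the coat components Sec23a (-2.62 and -2.22) and Sar1b (-1.82 and -1.68). Of 13 genes of N-glycosylation 5 were higher, led by Tusc3 (1.64 and 1.33) and Krtcap2 (1.33 and 1.26), with Magt1 (0.02 and 0.25) and Stt3b (0.14 and 0.40) lowest. Among 16 ERAD genes 0 were called, with Edem3 (1.38 and 0.82) and Ube2g2 (0.95 and 1.02) highest and Derl1 (-0.29 and -0.20) and Nploc4 (-0.09 and -0.14) lowest. Of 13 further genes of translocation 1 was higher, Spcs3 (1.18 and 1.44), followed by Srprb (1.17 and 0.97), with Sec63 (0.07 and 0.15) and Srp54b (0.23 and 0.20) lowest. Cytosolic and mitochondrial heat shock genes, a contrast list outside the ER, gave 1 of 9, Hsp90ab1 (1.02 and 1.44), with Hspd1 (0.83 and 1.51) next and Dnaja1 (-0.77 and -0.31) and Hspa8 (-0.13 and 0.54) lowest. Counted from the median of all genes, 6 folding enzymes, 5 sensors and stress genes and 3 transport genes were higher in goblet cells, and 0 of the other 4 lists.

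In Paneth cells the genes called higher outside the 42 numbered 4 of 20 folding enzymes, led by Fkbp9 (2.92 and 4.05) and the pancreatic isomerase Pdia2 (2.14 and 4.17), and 4 of 18 sensors and stress genes, led by Bhlha15 (2.93 and 3.01), the MIST1 factor of secretory cells, and Chac1 (2.70 and 2.45), a target of ATF4. Kdelr3 (2.48 and 1.92) was the 1 of 21 transport genes called higher. The other lists gave 0 higher: 13 translocation genes, 13 of N-glycosylation, 16 of ERAD and 10 heat shock genes, with 4, 7, 9 and 8 lower, beside 3.26% of all genes higher and 71.3% lower. Counted from the median of all genes, 6 translocation genes, 1 of N-glycosylation, 3 of ERAD and 0 heat shock genes were higher, beside 14.8% of all genes. So were 7 folding enzymes, 6 sensors and stress genes and 3 transport genes. Lower on that count were 1 heat shock gene, 1 sensor or stress gene, 2 transport genes and 0 of the other lists. Among translocation, N-glycosylation, ERAD and heat shock genes the highest were Spcs3 (0.57 and 0.69), Krtcap2 (-0.10 and -0.35), Edem2 (0.34 and -0.17) and Hspe1 (-1.37 and -0.83). The lowest were Sec61a2 (-1.85 and -1.71), Stt3b (-2.16 and -1.96), Faf2 (-2.16 and -2.14) and Hspa1b (-3.22 and -2.70). Among folding enzymes, sensors and transport genes Calu (-2.20 and -1.88), Creb3l3 (-5.76 and -5.57) and Sec23a (-4.47 and -4.34) were lowest. In enteroendocrine cells 16.7% of all genes were called higher and 8.77% lower. Tusc3 (2.87 and 2.57) was the 1 of 13 genes of N-glycosylation called higher. Tmed9 (1.39 and 1.52) was the 1 of 20 transport genes higher, and 4 were lower. Of 12 sensors and stress genes 3 were higher and 3 lower. Among the higher were Ppp1r15a (2.71 and 2.94), the phosphatase subunit that reverses the PERK signal, and Creb3l1 (1.55 and 1.82). Of 9 heat shock genes 4 were higher, led by Hsp90aa1 (1.70 and 1.89), and 0 lower. Counted from the median of all genes 3 were higher, beside 10.1% of all genes.

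Free RNA from Paneth cells may have added to each level outside them, but it was not measured. The estimate takes every Paneth-marker UMI in another class as free RNA, which was not tested. A droplet gated as absorptive held a median of 199 Paneth-marker UMIs in WT and 190.5 in KO. Droplets of under 1500 UMIs with 10% to 32% Paneth markers held 180 and 138. They were picked by that share, so they do not measure free RNA. From the median Paneth marker, free Paneth RNA would bring 7.97% of the Paneth level into WT absorptive cells and 4.92% into KO ones. Single markers ran from 4.88% to 12.1% in WT and from 3.73% to 8.57% in KO. In goblet cells they ran from 4.61% to 30.8% and from 2.70% to 25.4%, so values there are less certain. By the highest marker 39 of the 42 members in WT and 40 in KO were above the level it gives in absorptive cells. By the median marker 40 in WT and 42 in KO were above, and the median member would owe 4.55% and 2.62% of its absorptive level to free RNA. Tmed6 and Derl3 were not above the median-marker level in WT, and Nucb2 came next closest to it. Tmed6 was at 8.91 CPM in WT absorptive cells where free RNA alone would give 11.9, and at 7.32 in KO where it would give 6.43. For Nucb2 the pairs were 10.7 and 7.12 in WT and 4.82 and 2.19 in KO, and for Derl3 0.151 and 0.156, and 0.0926 and 0.0754. By the median marker, the absorptive level of Tmed6 in WT was thus no higher than free RNA alone would give. Goblet-cell RNA is not covered by this estimate.

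**Figure D4:**
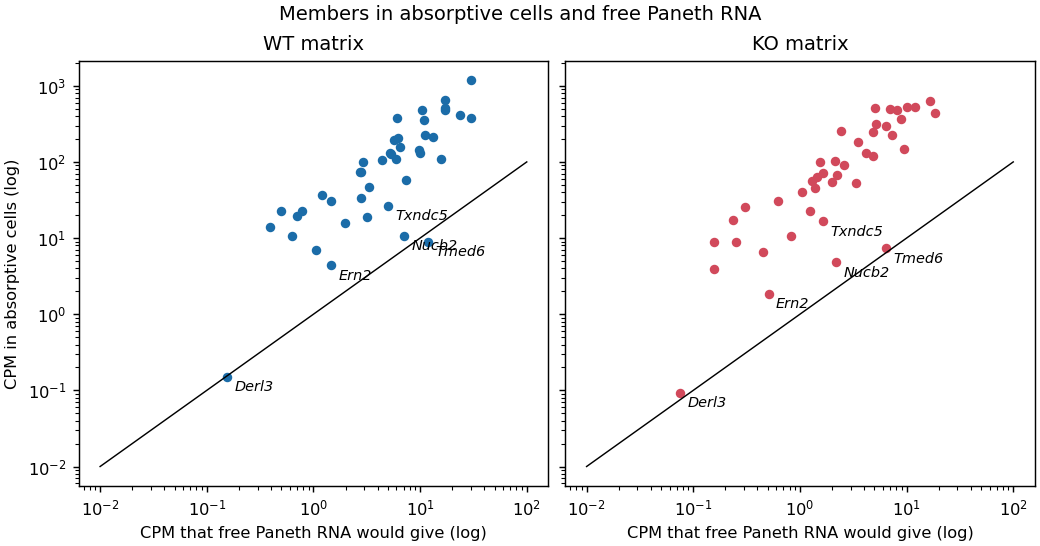
CPM of each member in absorptive cells (vertical, log axis) against the CPM that free Paneth RNA would give there (horizontal, log axis), with WT in blue on the left, KO in red on the right and equality on the diagonal. Most members lie far above the diagonal, and Tmed6, Derl3 and Nucb2 lie on or close to it.

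The classes were also split within themselves. Goblet cells with progenitor markers (771 WT, 449 KO) and without them (842 WT, 302 KO) differed by 2-fold in both matrices for 0 of 41 members, where 6.36% of all genes were higher and 0.797% lower in the cells with progenitor markers. Dnajb9 (-0.65 and -0.76), a BiP cochaperone, Ddit3 (-1.08 and -0.70) and Ern2 (-0.50 and -0.44) had lower levels in the cells with progenitor markers, without passing 2-fold in both matrices. The members' median was -0.12 and -0.25 there, while that of all 8780 genes was 0.36 and 0.20. Among enteroendocrine cells 1 of 25 tested members passed, Atf6, lower by 1.62 and 1.55 on the log2 scale in the cells with progenitor markers, beside 3.59% of all genes higher and 1.70% lower. Absorptive cells split at 6% of absorptive-marker UMIs, and the deeper and shallower Paneth cells of a matrix, gave 0 calls among 38 and 42 members. Few of all genes passed there either, 2.39% higher in the absorptive cells below that split, and 0.0689% higher and 0.0230% lower in the shallower Paneth cells.

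KO was then set against WT within each class. The log2 ratio of CPM was then counted from the median over every gene that had 50 UMIs in the class, and a member was called at 2-fold from that median. In Paneth cells 0 of 42 members were higher and 3 lower, against 3.48% and 5.15% of 10829 genes. In goblet cells 1 of 41 was higher and 2 lower, against 6.32% and 6.67% of 10268. In enteroendocrine cells 3 of 34 were higher and 2 lower, against 7.7% and 12.6% of 5040. In absorptive cells 4 of 40 were higher and 1 lower, against 6.13% and 6.93% of 8979. In progenitors 4 of 41 were higher and 0 lower, against 3.47% and 5.04% of 11198. The members' median was -0.13, -0.08, -0.02, 0.23 and 0.27 in that order of classes.

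The lower members were Atf6, Ern1, Ern2, Dnajc10 and Sel1l. In Paneth cells Atf6 had 8.74 CPM (WT) and 3.16 (KO), 1.23 below the median of all genes on the log2 scale (interval -1.52 to -0.96). Ern1 went from 7.93 to 3.16 CPM, at -1.09, and Dnajc10 from 40.3 to 16.8, at -1.03. None of these 3 Paneth calls was kept with each cell weighted equally (-0.9995, -0.81 and -0.81), after thinning cells to 2000 UMIs (-0.99, -0.64 and -0.98) or against genes of like transcript length (-0.73, -0.59 and -0.82). In goblet cells Dnajc10 went from 286 to 96.6 CPM, at -1.26 (-1.35 to -1.17), and Ern2 from 125 to 46.6, at -1.12 (-1.25 to -0.98), with Atf6 next at -0.91. Atf6 stood lowest in enteroendocrine cells, at 173 and 39.8 CPM from 136 and 54 UMIs, or -2.01 (-2.49 to -1.54), and Sel1l was at -1.02 and Dnajc10 at -0.71 there. In absorptive cells Ern1 was at 10.6 and 3.89 CPM, at -1.08, from 70 and 42 UMIs, followed by Hyou1 (-0.97) and Nucb2 (-0.79). In progenitors, with no member called lower, Atf6 (-0.98), Ern1 (-0.97) and Hyou1 (-0.89) were lowest. The ratio of Atf6 in enteroendocrine cells was -1.64 in those with progenitor markers and -1.88 in those without, but it moved with the clusters described above: the 50 WT cells of the cluster led by Gip had 31.8 CPM, the 97 KO cells 39.8. Genotype and the makeup of the gate cannot be told apart there.

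The higher members were Spcs1, Creld2, Manf, Sdf2l1, Ssr2 and Tmed6. Spcs1, a signal peptidase subunit, reached 216 CPM in goblet cells of WT and 409 in those of KO, at 1.23 above the median of all genes. It was at 155 and 296 in absorptive cells, at 1.29, and at 158 and 309 in progenitors, at 1.35. Creld2, a secreted target of ER stress, was at 30.5 and 64.1 CPM in absorptive cells (1.43), 42.4 and 68.3 in progenitors (1.06) and 44.5 and 82.6 in enteroendocrine cells (1.0). Manf, a neurotrophic factor released under ER stress, was at 227 and 369 CPM in absorptive cells (1.06), 235 and 365 in progenitors (1.01) and 179 and 382 in enteroendocrine cells (1.20). The enteroendocrine call of Manf was lost with stricter cuts, with classes from clusters and after thinning. In WT it was at 137 CPM in the cluster led by Chgb and at 232 in that led by Gip. Genotype and the makeup of the gate cannot be told apart there either. Sdf2l1 in absorptive cells (1.05), Ssr2 in progenitors (1.03) and Tmed6 in enteroendocrine cells (1.0, from 15 and 48 UMIs) completed the calls, and that of Tmed6 turned to -1.19 with classes from clusters and was 2.85 with free Paneth RNA taken off. Creld2 kept its call in 12 of 13 alternatives in absorptive cells, 9 of 13 in progenitors and 5 of 12 in enteroendocrine cells. Manf kept it in 7 of 13 in absorptive cells and in 7 of 13 in progenitors. Sdf2l1 kept it in 7 of 13, Ssr2 in 8 of 13, and Spcs1 in 11 of 13 in each class where it was called. The highest ratios in Paneth cells, none of them called, were those of Creld2 (0.91), Spcs1 (0.91) and Ssr2 (0.69), and in goblet cells Creld2 (0.75) and Ssr2 (0.69) came after Spcs1. The core effectors lay closer to the median. Xbp1 was between -0.42 and 0.41 over the 5 classes, Hspa5 between -0.23 and 0.25, and Atf4 between -0.66 and -0.07. Ddit3 was between 0.24 and 0.53 in the 4 classes that had 50 UMIs. Against genes of like transcript length, described below, Ddit3 was below 0 in all 4, between -0.39 and -0.13. On that scale Atf4 was between -0.95 and -0.47, Xbp1 between -0.68 and 0.13, and Hspa5 between -0.023 and 0.49.

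Of the 34 members tested in all 5 classes, 13 were above the median of all genes in every class, 11 below it in every class, and 10 on both sides. Against genes of like transcript length, described next, 6 were above and 8 below in all 5 classes. The widest ranges over classes belonged to Dnajb9, from -0.63 to 0.89, and Atf6, from -2.01 to -0.77, while the median member ranged over 0.59. Both low ends were in enteroendocrine cells, where the makeup of the gate differed between the matrices. Dnajb9 was at -0.11 in those with progenitor markers (10 UMIs in WT, 23 in KO). In those without them it was at -1.50 (18 and 6 UMIs). The 5 classes of a matrix share a library, so these are not independent values.

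Transcript length moved with these ratios. The members' main transcripts in GENCODE M21 ran from 564 bases for Sec61b to 9333 for Ssr1, with a median of 2430. Spcs1 (702 bases), Sdf2l1 (1108), Ssr2 (1189) and Creld2 (1366) were short, and Dnajc10 (4042), Hyou1 (4489), Sel1l (6300), Ern1 (6946) and Atf6 (7246) were long. Across members Spearman's rho between length and the centred ratio was -0.67 in Paneth cells (n = 42), -0.65 in goblet cells (n = 41), -0.69 in enteroendocrine cells (n = 34), -0.57 in absorptive cells (n = 40) and -0.74 in progenitors (n = 41), all values from the same pair of libraries. Across all genes it was -0.57, -0.63, -0.60, -0.61 and -0.66. In goblet cells the 2565 shortest of all genes (183 to 1837 bases) had a median ratio of 0.66 and the 2564 longest (4450 bases or more) one of -0.54. The part of length in the members' differences was not tested beyond setting each gene against genes of like length.

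Measured from the median of genes of like length, most calls were gone. In Paneth cells 0 members were higher and 1 lower (2.31% and 3.33% of all genes), in goblet cells 0 and 2 (3.18% and 3.71%), in enteroendocrine cells 1 and 1 (4.15% and 7.60%), in absorptive cells 0 and 1 (4.42% and 2.67%), and in progenitors 0 and 1 (1.95% and 2.77%). Those past 2-fold were Atf6 (-1.18) and Manf (1.10) in enteroendocrine cells, Ern2 (-1.06) in goblet cells, and Nucb2 in goblet cells (-1.27), absorptive cells (-1.24), Paneth cells (-1.15) and progenitors (-1.03). The levels of Atf6 and Manf also differed between the WT enteroendocrine clusters, as given above. Nucb2, at 1685 bases, went from 89.4 to 44.6 CPM in Paneth cells. Outside them free Paneth RNA would, by the same estimate, give 66.5% of its level in WT and 45.5% in KO absorptive cells. That RNA would give 48.5% and 27.4% of it in progenitors, and 13.2% and 8.35% in goblet cells. With that taken off, its ratio from the median of all genes was -0.11 in place of -0.79 in absorptive cells, -0.088 in place of -0.57 in progenitors, and -0.73 in place of -0.79 in goblet cells. Manf, at 2247 bases, was above genes of like length in all 5 classes, by 0.35 to 1.10, and Spcs1 by 0.32 to 0.68.

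**Figure D5:**
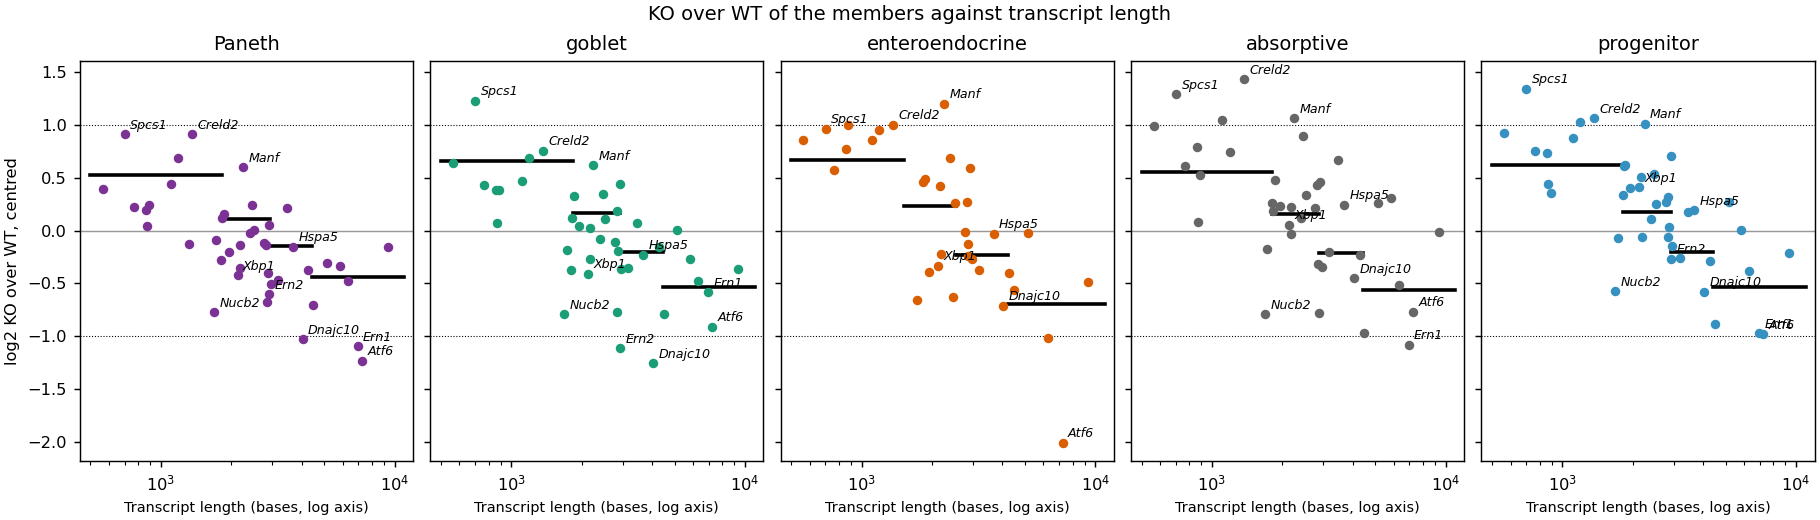
Log2 ratio of CPM, KO over WT, centred on all genes (vertical axis), against the length of the main transcript (bases, horizontal log axis) for the members with 50 UMIs in each class, with black bars for the median of all genes in each of 4 groups of length and dotted lines at 2-fold. Short members such as Spcs1 lie high and long ones such as Atf6 lie low in every panel, as the bars of all genes do. Spcs1 lies above and Atf6 below the bar at its length in every panel, and the longest member, Ssr1, above it. Nucb2 lies below the bars in the 4 panels that show it.

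Outside the 42, the lists were read against the shares of all genes given above. Other sensors and stress genes had centred medians of -0.58 in Paneth cells, -0.60 in goblet cells and -0.31 in progenitors, with 4 of 19, 4 of 18 and 3 of 18 called lower, led by Sesn2 (-1.88) in Paneth cells, Atf3 (-1.28) in goblet cells and Nfe2l1 (-1.42) in progenitors, and 0 higher, where 5.15%, 6.67% and 5.04% of all genes were lower. Cytosolic and mitochondrial heat shock genes were on the other side, with medians of 0.77 in Paneth, 0.90 in goblet and 0.52 in progenitor cells, and 4 of 10, 4 of 11 and 2 of 11 called higher, led by Hspa1b (1.24 in Paneth and 2.41 in goblet cells) and Hspa1a (1.83 in progenitors), where 3.48%, 6.32% and 3.47% of all genes were higher. In enteroendocrine and absorptive cells the heat shock medians were 0.40 and 0.37, with 1 of 8 and 0 of 10 called higher, and the medians of other sensors were -0.76 and -0.29, with 4 of 9 and 2 of 16 called lower. Against genes of like transcript length the sensors had medians of -0.44 in Paneth, -0.46 in goblet, -0.63 in enteroendocrine, -0.035 in absorptive and -0.071 in progenitor cells, with 5, 3, 2, 1 and 2 called lower. On that scale the heat shock medians were 0.71, 0.91, 0.45, 0.25 and 0.57 in the same order, with 4, 4, 0, 1 and 3 called higher. Further folding enzymes had medians of -0.05, 0.08 and 0.29, further translocation genes -0.08, 0.17 and 0.28, and genes of N-glycosylation 0.05, 0.11 and 0.64, ERAD genes 0.04, 0.05 and 0.37, and transport genes -0.24, -0.05 and 0.09 in Paneth, goblet and progenitor cells.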

How the data were processed

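Droplet 3' single-cell RNA-seq of sorted crypt cells was analysed from 2 deposited matrices. The deposited values are raw UMI counts per gene and barcode, which the authors made with Cell Ranger. The submitters' processing notes name version 2.1.1 and build mm10, and the matrix header names version 4.0.0. The methods state default parameters.

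Barcodes with at least 200 genes and at most 30% mitochondrial UMIs were kept. Each class was gated by its markers' share of UMIs, at least 32% for Paneth cells, and otherwise under 10% Paneth markers with at least 2% goblet, 0.5% enteroendocrine, 2% absorptive, 0.1% tuft or 0.15% stem and cycling markers. Droplets in 2 gates were left out. The 3607 WT and 3322 KO barcodes with 10% to 32% Paneth markers were in none of the main classes. The cuts were placed after the distributions were seen. The 42 members and all gene lists were chosen with earlier results of these data known. A doublet caller marked 1 WT and 0 KO barcodes and so had not worked; removal by highest doublet score (1440 barcodes of WT, 606 of KO) was an alternative.

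UMI counts were summed per class and matrix and divided by all UMIs of the class (CPM). Ratios needed 50 UMIs over both sides, in each matrix for class ratios. Intervals are 95% exact Poisson or conditional binomial intervals, and limits for 0 UMIs use 3 UMIs. With 1 matrix per group no p-value was computed. Members were named by a rule covering the 5 highest and 3 lowest class ratios, the 3 highest and 3 lowest KO to WT ratios, and 10 fixed genes. Lengths came from GENCODE M21. Alternatives were stricter and looser cuts, classes from Leiden clusters (scanpy 1.11.5, leidenalg 0.10.2), other filters, equal weight per cell, thinning to 2000 UMIs and other centring. The scripts (Python 3.11.15, numpy 2.4.6, scipy 1.17.1, pandas 2.3.3) were tested on simulated data.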

Additional observations from a re-analysis of the deposited data

How the results depend on the processing

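No paired analysis was possible because each genotype came as 1 matrix and no barcode was tied to a labelled sample. The limits throughout are that 1 matrix per genotype gives no replicate error, and that KO cells were deeper. Centring on like transcript length was chosen after seeing the data, as was taking off free Paneth RNA.

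Counts of members called higher in a class than in absorptive cells changed as follows. For Paneth cells (5) they were 3 with cuts 1.5 times as strict, 3 with classes from clusters and 17 after centring on all genes. For goblet cells (15) they were 7 after centring, and for enteroendocrine cells (4) 1 with clusters and 2 after centring. After centring, 12 members called lower in Paneth cells changed sign: Atf6 0.42, Hspa5 0.36, Calr 0.030, Dnajb11 0.20, Pdia3 0.27, Pdia4 0.46, P4hb 0.36, Syvn1 0.063, Sec61g 0.50, Ssr1 0.64, Ssr2 0.37 and Kdelr2 0.38.

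The log2 ratio of the members' summed share over absorptive cells was -0.92 in Paneth cells, and -1.06 with strict cuts, -0.84 with loose cuts, -0.72 with clusters, -0.96 with a mitochondrial limit of 15%, -0.96 without high doublet scores and -0.75 with cells weighted equally. In goblet cells it was 0.87, and 0.93, 0.83, 0.85, 0.84, 0.91 and 0.99 in that order. In enteroendocrine cells it was 0.02, and -0.011 with loose cuts, -0.011 with the 15% limit, 0.14 with clusters and 0.13 with equal weight.

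For KO against WT, Paneth members called higher (0) were 2 after thinning. Those lower (3) were 1 with strict cuts, 6 with clusters, 0 with equal weight, 0 after thinning and 1 against like length. Goblet members higher (1) were 0 uncentred and 0 against like length, and those lower (2) were 5 with clusters, 1 with equal weight, 4 after thinning and 6 uncentred. Enteroendocrine members higher (3) were 1 with strict cuts, clusters, thinning, no centring or like length, 5 with equal weight, 8 from 20 UMIs and 9 from 1 UMI. Those lower (2) were 1 with strict cuts, the 15% limit or like length, 5 with clusters and 4 with equal weight. Absorptive members higher (4) were 1 uncentred and 0 against like length, and those lower (1) were 3 with strict cuts or the 15% limit, 2 with loose cuts or thinning, 8 with clusters and 5 uncentred. Progenitor members higher (4) were 2 with strict cuts, clusters or equal weight, 1 after thinning and 0 uncentred or against like length, and those lower (0) were 1 with loose cuts, equal weight, thinning or like length, and 3 with clusters or no centring. Tmed6 in enteroendocrine cells changed sign to -1.19 with clusters. Over called members and alternatives, 184 KO to WT calls held, 68 were lost and 1 changed sign. The causes were not tested.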
